A study of Bos taurus with 9 samples.

Results

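Serpins are a family of proteins that mostly act as suicide inhibitors of serine proteases, and they are sorted into clades by sequence, which their symbols carry as a letter. Members were chosen as rows of the expression table whose symbol begins with SERPIN. The 51 described here, of 21512 genes in all, belong to 9 clades and were followed through the conversion of bovine ear fibroblasts (BEFs) into chemically induced adipocyte-like cells (CiADCs). Gene expression was measured by RNA sequencing in BEFs on day 0, in CiADCs-3d on day 3 and in CiADCs-6d on day 6, with 3 samples in each group. All samples were labelled wild type. BEFs were grown in DMEM with 10% fetal bovine serum and received no compound. CiADCs-3d and CiADCs-6d were such fibroblasts moved to N2B27 medium that held 3 compounds: 10 µM RepSox, 1 µM TTNPB and 500 µg/mL VPA. RepSox is an inhibitor of the TGF-beta type I receptor kinase, TTNPB is an agonist of retinoic acid receptors, and VPA (valproic acid) is an inhibitor of histone deacetylases. Effects of the compounds, of the medium and of 3 or 6 more days in culture cannot be told apart, since no library came from cells cultured that long without compounds. Whether the 3 samples of a group came from separate animals or separate inductions is not stated, so the p-values measure only the spread between these samples, which may be technical.

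A serpin presents a reactive loop as bait, and the protease that cuts it is trapped in a covalent complex. Some members have lost this activity and work as a chaperone, a hormone carrier or a signalling protein. In connective tissue and fat, secreted serpins are known to control plasminogen activation, blood clotting, complement and the folding of collagen, while the clade B members act mainly inside cells against proteases that leak from granules and lysosomes.

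The deposited table holds expected counts, which are estimated reads per gene, and FPKM, which are fragments scaled to transcript length and to library size. FPKM is per length, so it is the scale used here to set one gene beside another. Library totals ranged from 18509244 to 24071580 expected counts. The tests were run on the counts with edgeR's quasi-likelihood test and the Benjamini-Hochberg adjustment over 14020 tested genes, and a gene was called at an adjusted p under 0.05 with at least a 2-fold difference. In the principal components of the whole table, the CiADCs-3d and CiADCs-6d samples numbered 1 lay nearer to the other day than the other samples of their group did. Some results that rest on them are also given without them.

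The fibroblast markers were present in every group, and 10 of 10 were measured. Their FPKM summed to 16954–17218 in BEFs against 5976–8156 in CiADCs-3d and 4007–5106 in CiADCs-6d. In BEFs most of it came from VIM, COL1A1, COL1A2 and COL3A1. Of the 10, 0 were called higher and 5 lower on day 3, and 0 and 6 on day 6, beside the shares over all tested genes given below. On day 3, COL3A1, DCN and THY1 were not called, and PDGFRA and PDGFRB rose by under 2-fold. The 8 adipocyte markers summed to an FPKM of 21.5 to 25.8 in BEFs, 16.4 to 30.03 in CiADCs-3d and 10.96 to 12.5 in CiADCs-6d. PLIN1, which coats the lipid droplets of mature fat cells, had a mean FPKM of 1.44, 1.14 and 1.12, and ADIPOQ, the fat hormone adiponectin, one of 0.42, 1.87 and 1.55. Of the 7 adipocyte markers tested, 3 were called higher and 2 lower on each day. Over all tested genes, 18.2% were called higher and 9.94% lower on day 3, and 21.9% and 13.4% on day 6. FABP4, the fatty acid carrier that made up most of the sum in BEFs, had a mean of 17.2 there and fell to 8.58 and 1.40. CIDEC, another lipid droplet protein, fell as well, with means of 0.85, 0.16 and 0.040. ADIPOQ and LPL, lipoprotein lipase, were called higher on both days, PPARG on day 3 alone and CEBPA on day 6 alone. The cells are therefore called by their group names below. Several serpins are plasma proteins made by the liver. The 12 rows of the hepatocyte list summed to an FPKM of 44.1 to 50.8, 18.7 to 22.45 and 7.77 to 12.4 in that order, most of it from APOA1 (ncbi_281631), whose mean fell from 43.5 to 16.5 and 5.44. Of the 4 rows tested, 1 was called higher and 2 lower on each day, beside the shares over all tested genes given above. TTR, transthyretin, was lower, with means of 3.16, 1.027 and 0.38, and TF, transferrin, was higher, listed at 0 in BEFs against means of 2.29 and 3.13. TF passed the filter on low counts only through the CiADCs samples. FGA, FGG and APOH were listed at 0 in all 9 samples, and ALB did not pass an FPKM of 0.16 in any. The part of other cell types in the serpin levels was not tested.

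Many serpins were silent in these cells. Of the 51 members, 25 had no count in any sample, 12 had counts too low to be tested and 14 were tested. Clade A, the plasma antitrypsins, antichymotrypsins and hormone carriers, had 16 members, of which 12 had no count and 0 were tested. Clade B, the intracellular serpins, had 25 members, with 12 at no count and 7 tested. The remaining clades were small. Both members of clade F were tested, as were the only members of clades C, G and H. SERPINE2 was tested and SERPINE3 was not. In clade I, 1 of 2 was tested. The member of clade D was not. Between 8 and 10 of the 51 members reached an FPKM of 1 in each sample.

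**Figure D1:**
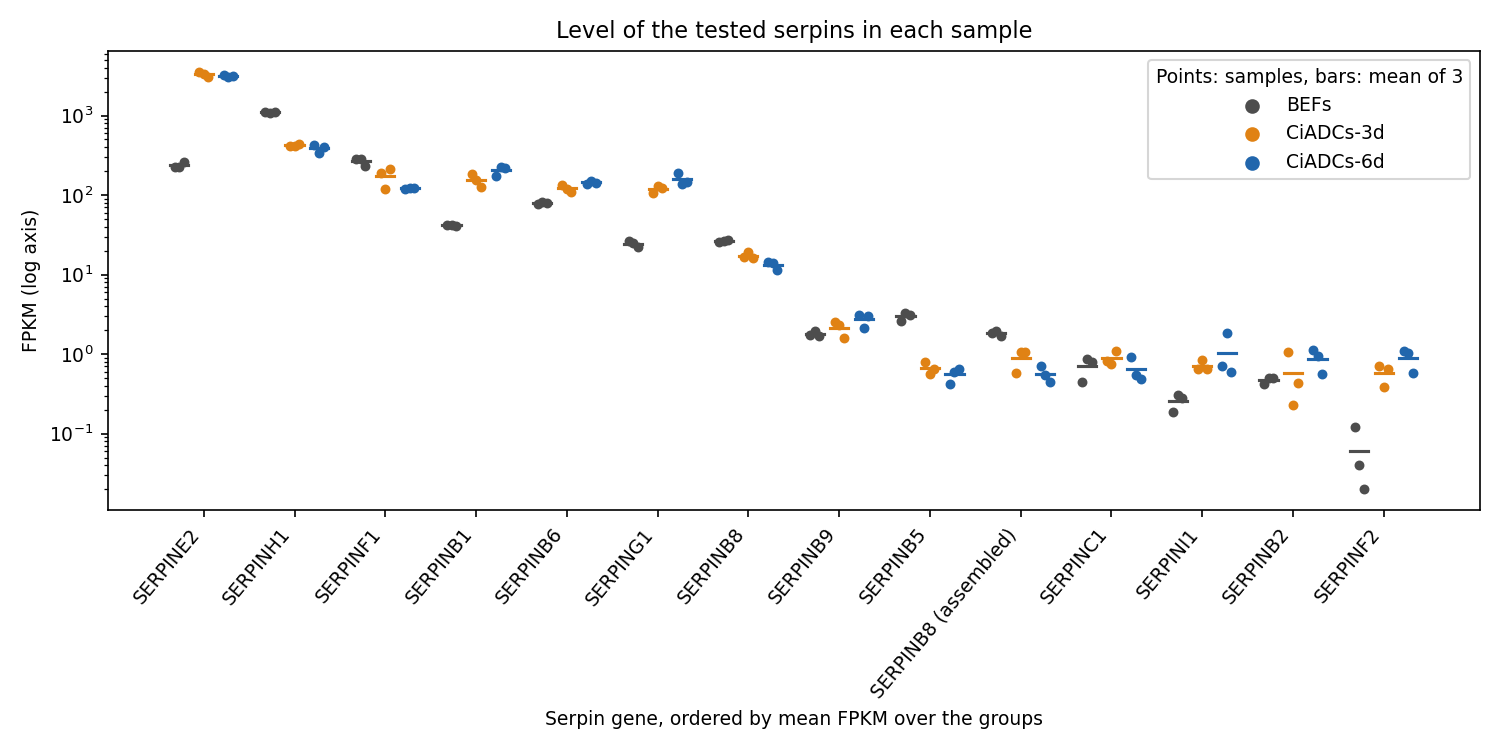
FPKM of the 14 tested serpins (log axis) in each of the 9 samples, ordered by mean level, with BEFs in grey, CiADCs-3d in orange and CiADCs-6d in blue, points for samples and bars for the mean of 3. SERPINE2 had a mean of 236 in BEFs and at least 3012 in every CiADCs sample, while SERPINH1 was highest in BEFs.

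The summed serpin mRNA was higher in CiADCs, and SERPINE2 alone gained more FPKM than the sum did. The FPKM of the 51 members described here, to which sums and shares are limited, summed to 1785 ± 24.2 (SD, n = 3) in BEFs against 4317 ± 285 in CiADCs-3d and 4182 ± 165 in CiADCs-6d. Both CiADCs groups lay above BEFs without overlap, with an exact two-sided permutation p of 0.1, the smallest that 3 against 3 samples allow. Between the days the sums overlapped (exact permutation p = 0.6). In BEFs the summed serpin FPKM was led by SERPINH1, the collagen chaperone HSP47, which held 61.7% ± 0.534 of it, and SERPINE2 held 13.2% ± 1.22. In CiADCs-3d, SERPINE2 held 76.4% ± 1.70 and SERPINH1 9.82% ± 0.925. In CiADCs-6d these shares were 75.1% ± 0.122 and 9.29% ± 0.803. SERPINF1, a secreted member that inhibits no protease, held 14.9% ± 1.55 of it in BEFs against 4.04% ± 1.25 in CiADCs-3d and 2.93% ± 0.144 in CiADCs-6d. As these are bulk samples, fewer cells that make a transcript and less of it per cell cannot be told apart.

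**Figure D2:**
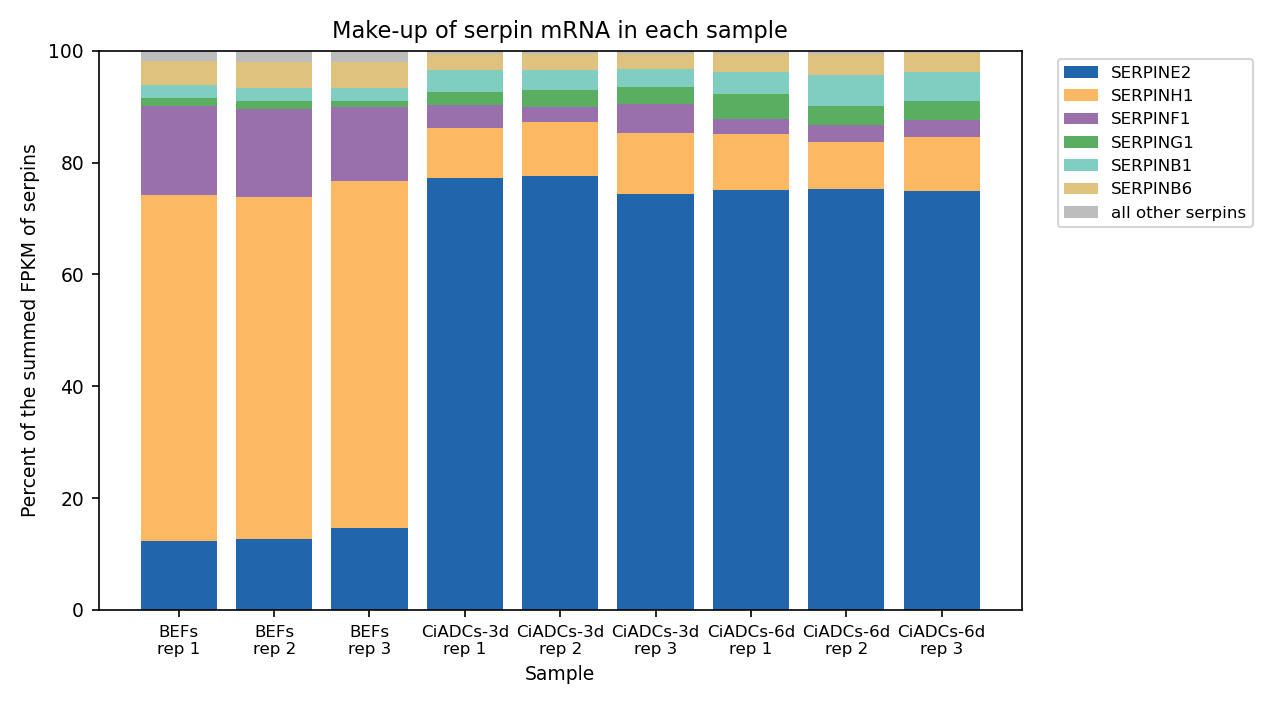
Share of each serpin in the summed FPKM of the 51 members described, in percent, as 1 stacked bar for each of the 9 samples, with 6 abundant members in colour and the others of the 51 in grey. SERPINH1 took the largest share in the 3 BEFs samples and SERPINE2 in the 6 CiADCs samples.

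On day 3, 5 serpins were called higher than in BEFs and 3 lower. Over all tested genes, 18.2% were called higher and 9.94% lower in this comparison. The higher members were SERPINB1, SERPINE2, SERPINF2, SERPING1 and SERPINI1, and the lower ones were SERPINB5, an assembled SERPINB8 locus and SERPINH1. SERPINF2 had under 10 counts in every BEFs sample and passed the filter on low counts only through the CiADCs samples. A further 1 member was higher and 2 were lower at the adjusted p alone, with less than a 2-fold difference. At that looser rule, 30.9% of all tested genes were higher and 29.1% lower. The median log2 fold change was 0.29 over the 14 tested serpins and 0.0060 over all tested genes, a median that depends on which members had enough counts.

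On day 6, 5 serpins were again called higher than in BEFs, the same 5 symbols, and 5 were called lower. SERPINF2, 1 of the higher ones, passed the filter only through the CiADCs samples. The background over all tested genes was 21.9% higher and 13.4% lower. The lower members were SERPINB5, SERPINF1, SERPINH1, SERPINB8 and the assembled SERPINB8 locus. At the adjusted p alone a further 2 were higher and the lower members stayed at 5, with 35.6% and 31.9% of all tested genes on each side. The median log2 fold change was 0.71 over the tested serpins and 0.033 over all tested genes. Both days were compared with the same 3 BEFs samples, so their values are not independent of each other.

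Between day 3 and day 6, edgeR called 0 of the 14 tested serpins higher and 0 lower, where 4.09% of all tested genes were higher and 3.22% lower. At an unadjusted p under 0.05, 3 of the 14 were higher and 3 lower, and DESeq2 also called 0 in each direction. At the adjusted p alone, 2 members, SERPINB8 and SERPINF1, were lower on day 6, with backgrounds of 14.4% higher and 13.6% lower. Without the CiADCs samples numbered 1, 2 serpins were called lower on day 6 than on day 3. In that fit 887 of all 14168 tested genes were called higher and 1080 lower. They were the assembled SERPINB8 locus and a SERPINB6 copy with few counts, both described below.

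**Figure D3:**
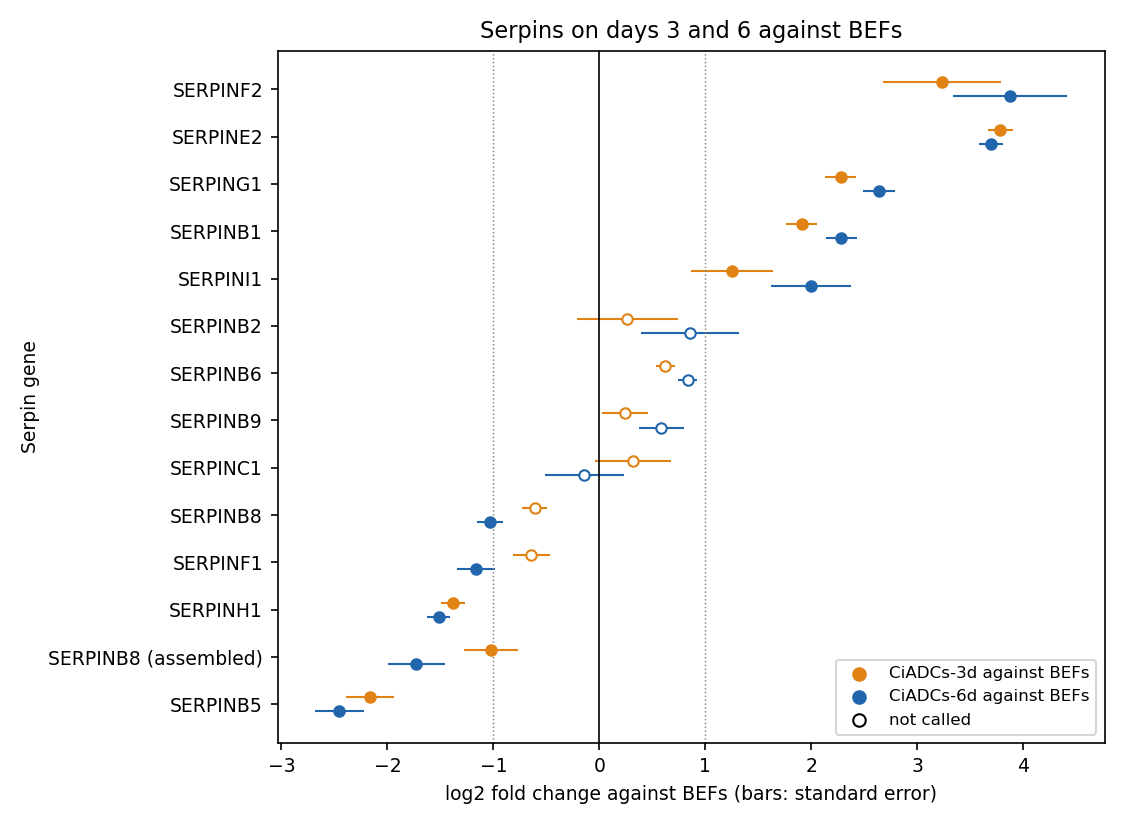
Log2 fold change of the 14 tested serpins against BEFs on day 3 (orange) and day 6 (blue), with bars for the standard error, filled points for called members and open points for the others, and dotted lines at a 2-fold difference. SERPINF2 and SERPINE2 lay highest at 3.88 and 3.70 on day 6 and SERPINB5 lowest at -2.45. SERPINF2 had 6, 2 and 1 counts in BEFs.

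The most abundant of the 51 members in CiADCs was SERPINE2, which was called higher on both days. SERPINE2 (ncbi_282521) encodes protease nexin-1, a heparin-binding inhibitor of thrombin, urokinase and tissue plasminogen activator. Its FPKM was 224, 227 and 258 in the BEFs samples, 3564, 3318 and 3018 in CiADCs-3d and 3255, 3012 and 3159 in CiADCs-6d. Every CiADCs sample was more than 10 times any BEFs sample, and the days overlapped. SERPINE2 rose 13.8-fold on day 3, a log2 fold change of 3.79 (SE 0.12, adjusted p = 1.71e-10). On day 6 it was 13.0-fold above BEFs, a log2 fold change of 3.70 (SE 0.12, adjusted p = 1.89e-10). The difference between the days was -0.09 on the log2 scale (SE 0.11, adjusted p = 0.565). By FPKM, SERPINE2 ranked between 254 and 286 among all genes of the table in BEFs, between 5 and 7 in CiADCs-3d and between 6 and 8 in CiADCs-6d. It took 0.0494% of all counts in BEFs against 0.691% in CiADCs-3d and 0.658% in CiADCs-6d. SERPINE3 had 1 count in each of CiADCs-6d replicates 2 and 3 and none elsewhere.

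SERPINI1 (ncbi_509976), or neuroserpin, is a further inhibitor of tissue plasminogen activator, known mostly from neurons. It was scarce, with 8, 16 and 14 counts in BEFs, 21, 35 and 28 in CiADCs-3d and 41, 70 and 30 in CiADCs-6d. All CiADCs samples were above all BEFs samples, and the days overlapped. Its log2 fold change was 1.25 on day 3 (SE 0.39, adjusted p = 0.0149) and 2.002 on day 6 (SE 0.38, adjusted p = 0.000491). The day 3 call was lost without BEFs replicate 1 (1.04, adjusted p = 0.061) and without CiADCs-3d replicate 2 (1.04, adjusted p = 0.058).

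The proteases these inhibitors face, with receptors, cofactors and further inhibitors, were read from a list of the plasminogen and thrombin system. Of its genes 15 were tested, and the proteases among them were PLAT, PLAU, PLG and F2. On day 3, 8 of the 15 were called higher and 3 lower than in BEFs, with a median log2 fold change of 1.009. On day 6 the counts were 9 and 3, with a median of 1.23. Over all tested genes the shares were 18.2% higher and 9.94% lower on day 3 and 21.9% and 13.4% on day 6. F2, the prothrombin gene, was called higher on both days and passed the filter only through the CiADCs samples. The tissue plasminogen activator gene PLAT had an FPKM of 20.1, 19.97 and 21.1 in BEFs, 648, 330.4 and 423 in CiADCs-3d and 496, 776 and 841 in CiADCs-6d. It rose by 4.49 on the log2 scale on day 3 (SE 0.26, adjusted p = 2.85e-08) and by 5.08 on day 6 (SE 0.27, adjusted p = 1.04e-08). PLAU, the urokinase gene, had a mean FPKM of 41.7 in BEFs against 29.4 in CiADCs-3d and 50.4 in CiADCs-6d, and it was not called on either day, with log2 differences of -0.52 (adjusted p = 0.0112) and 0.25 (adjusted p = 0.167). ANXA2, a cell-surface binding partner of plasminogen and the gene of the list with the highest mean FPKM over the 9 samples, fell by 1.05 and 1.59. LRP1, an uptake receptor for protease and inhibitor complexes, was above it in CiADCs, with mean FPKM of 482 in BEFs against 984 in CiADCs-3d and 953 in CiADCs-6d. PLG, plasminogen itself, was near an FPKM of 1 in BEFs and fell by 2.72 and 2.58.

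**Figure D4:**
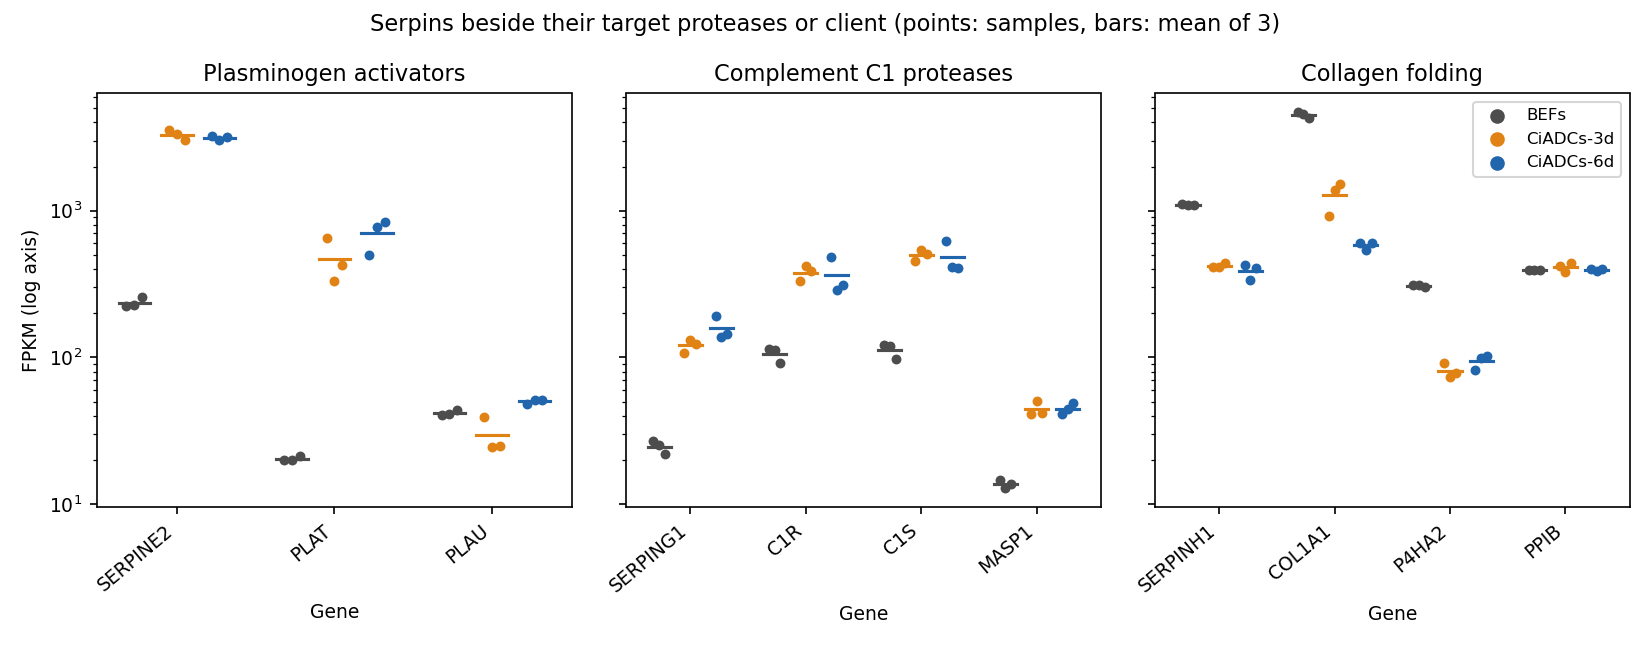
FPKM (log axis) in each sample for SERPINE2 beside the plasminogen activators PLAT and PLAU, for SERPING1 beside C1R, C1S and MASP1, and for SERPINH1 beside COL1A1, P4HA2 and PPIB, with points for samples and bars for the mean of 3. SERPINE2 and PLAT were higher in every CiADCs sample than in any BEFs sample, SERPING1 rose with C1R and C1S, and SERPINH1 and COL1A1 were lower in every CiADCs sample.

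Clade F pairs an inhibitor with a non-inhibitory member, and the pair went opposite ways. SERPINF1 (ncbi_281386) encodes PEDF, a secreted protein that restrains blood vessel growth and does not inhibit proteases. Its FPKM was 287, 282 and 232 in BEFs, 190.2, 118 and 213 in CiADCs-3d and 120.1, 123 and 124 in CiADCs-6d. Every CiADCs sample was below every BEFs sample, the day 3 samples were scattered and the day 6 samples lay close together. SERPINF1 fell by 1.16 on the log2 scale on day 6 (SE 0.18, adjusted p = 9.51e-05), while the day 3 difference of -0.64 (SE 0.18, adjusted p = 0.00738) was under 2-fold. SERPINF2 (ncbi_282522), alpha-2-antiplasmin, the fast inhibitor of plasmin, had 6, 2 and 1 counts in BEFs, 30, 18 and 34 in CiADCs-3d and 54, 49 and 25 in CiADCs-6d. All CiADCs samples were above all BEFs samples. Its log2 fold change was 3.24 (SE 0.56, adjusted p = 0.000313) on day 3 and 3.88 (SE 0.54, adjusted p = 4.32e-05) on day 6, but the gene passed the filter on low counts only through the CiADCs samples, and its FPKM stayed at or below 1.1. In RefSeq (assembly ARS-UCD2.0) SERPINF1 and SERPINF2 have 1 gene between them.

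SERPING1 (ncbi_281035) encodes C1 inhibitor, which blocks C1r and C1s of complement as well as factor XII and kallikrein. Its FPKM was 26.8, 25.15 and 21.9 in BEFs, 107, 132 and 124 in CiADCs-3d and 191, 137 and 144 in CiADCs-6d. The 3 groups did not overlap and the order was BEFs, day 3, day 6. SERPING1 rose by 2.28 on the log2 scale on day 3 (SE 0.15, adjusted p = 7.59e-08) and by 2.64 on day 6 (SE 0.15, adjusted p = 1.8e-08). The step from day 3 to day 6 was 0.36 (SE 0.14, adjusted p = 0.0729), and it was 0.063 (adjusted p = 0.636) without the CiADCs samples numbered 1, which were the lowest of day 3 and the highest of day 6.

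C1R and C1S, which encode target proteases of C1 inhibitor, rose as well. In the list of complement C1, contact and kinin genes, 6 were tested, of which 5 were called higher on both days, where 18.2% and 21.9% of all tested genes were, with median log2 fold changes of 1.97 and 1.90. F12 and KNG1, 2 of the 5, had under 10 counts in every BEFs sample and passed the filter only through the CiADCs samples, and without them 3 of 4 were called higher, with medians of 1.76 and 1.73. KLKB1, the plasma kallikrein gene, was too low to be tested. C1R had an FPKM of 114, 112 and 91.5 in BEFs, 332, 418 and 387 in CiADCs-3d and 486, 288 and 313 in CiADCs-6d, and rose by 1.82 on day 3 (SE 0.19, adjusted p = 4.25e-06) and 1.74 on day 6. C1S, the protease that C1r activates, had 122, 119 and 97.8 in BEFs, 454, 536 and 506.5 in CiADCs-3d and 623.5, 416 and 404 in CiADCs-6d, and rose by 2.13 (SE 0.17, adjusted p = 4.23e-07) and 2.05. For both genes every CiADCs sample was above every BEFs sample, and on day 6 replicate 1, also the highest for SERPING1, stood above the others. BDKRB1, a kinin receptor, was the tested gene that was not called, at 0.25 and 0.08. KNG1, the kinin precursor, had 0 counts in BEFs against 51 over CiADCs-3d and 28 over CiADCs-6d, which is at least 6.13-fold and 3.46-fold higher when each BEFs library is set to a floor of 3 counts.

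The summed FPKM of the leukocyte markers and that of the endothelial markers were higher in CiADCs, and single endothelial markers went both ways. The 8 leukocyte markers summed to an FPKM of 0.87 to 1.15 in BEFs, 26.3 to 28.3 in CiADCs-3d and 39.6 to 49.7 in CiADCs-6d, and 2 of them, CD14 and CD68, reached an FPKM of 1. PTPRC, which defines leukocytes, was listed at 0 in all 9 samples. The 7 endothelial markers summed to 2.29 to 3.38, 36.7 to 52.4 and 23.6 to 37.5, with 3 of them reaching an FPKM of 1, most of it from VWF, and EMCN at 0 throughout. PECAM1 had a lower mean FPKM in CiADCs (1.29, 0.89 and 0.83), as had CDH5 (0.14, 0.0033 and 0.020). TEK had a higher one (0.47, 1.01 and 0.77), and KDR and CLDN5 did not pass an FPKM of 0.22 in any sample. The part of other cell types in the levels of SERPING1 and its targets was not tested.

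SERPINH1 (ncbi_510850), or HSP47, inhibits no protease and instead helps the collagen triple helix fold in the endoplasmic reticulum. Its FPKM was 1119.6, 1088 and 1094 in BEFs, 416, 411 and 439 in CiADCs-3d and 429, 336 and 404 in CiADCs-6d. Every CiADCs sample was far below every BEFs sample, and the days overlapped. SERPINH1 fell by 1.38 on the log2 scale on day 3 (SE 0.11, adjusted p = 5.14e-07) and by 1.52 on day 6 (SE 0.11, adjusted p = 1.82e-07). It ranked between 44 and 47 by FPKM among all genes in BEFs, between 161 and 174 in CiADCs-3d and between 170 and 203 in CiADCs-6d.

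Its clients and fellow folding factors were followed in a list of 28 tested genes for collagen chains and their folding and export. On day 3, 0 were called higher and 9 lower, with a median log2 fold change of -0.73, and on day 6 the counts were 0 and 11, with a median of -0.74. Over all tested genes 18.2% were higher and 9.94% lower on day 3, and 21.9% and 13.4% on day 6. At the adjusted p alone, 3 were higher and 20 lower on day 3, and 3 higher and 19 lower on day 6. At that looser rule, 30.9% of all tested genes were higher and 29.1% lower on day 3, and 35.6% and 31.9% on day 6. COL1A1, the main chain of type I collagen, had an FPKM of 4690.0, 4601 and 4295 in BEFs, 923.5 to 1524 in CiADCs-3d and 539 to 606 in CiADCs-6d. It fell, its log2 fold change being -1.84 on day 3 and -2.997 on day 6, and it was also lower on day 6 than on day 3 (-1.16, adjusted p = 0.000791). ADAMTS2, which trims procollagen, had the highest log2 fold change of the list on day 6, 0.94 (adjusted p = 9.74e-06), under 2-fold. The summed FPKM of the fibroblast markers, of which COL1A1 is one, declined in the same samples, although PDGFRA and PDGFRB rose on day 3. The part of the decline of that sum in the level of SERPINH1 was not tested.

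Clade B members with an FPKM above 10 were 3 in number, and they split. SERPINB1 (ncbi_507264), an inhibitor of neutrophil elastase and related proteases, had an FPKM of 42.2, 42.6 and 40.7 in BEFs, 183, 154 and 126 in CiADCs-3d and 172, 223 and 219 in CiADCs-6d. All CiADCs samples were above all BEFs samples, and the days overlapped. It rose by 1.91 on day 3 (SE 0.14, adjusted p = 2.9e-07) and 2.29 on day 6 (SE 0.15, adjusted p = 5.2e-08). SERPINB6 (ncbi_286854), an intracellular inhibitor of cathepsin G, had 77.5, 81.7 and 80.1 in BEFs, 135, 119 and 111 in CiADCs-3d and 139, 152 and 144 in CiADCs-6d. It was above BEFs in 6 of 6 CiADCs samples, by 0.62 (adjusted p = 8e-05) and 0.83 (adjusted p = 5.16e-06) on the log2 scale, under 2-fold on both days. RefSeq places other SERPINB6 copies next to this gene, and how reads were shared between such copies cannot be told from the table.

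SERPINB8 (ncbi_513825), known as an inhibitor of furin-like proteases, went the other way. Its FPKM was 25.4, 26.1 and 27.3 in BEFs, 16.6, 19.1 and 16.4 in CiADCs-3d and 14.4, 14.04 and 11.5 in CiADCs-6d, with no overlap between the 3 groups. The log2 difference was -0.61 on day 3 (adjusted p = 0.000734, under 2-fold) and -1.03 on day 6 (SE 0.12, adjusted p = 9.11e-06). It lay at the 2-fold line, and 7 of 20 alternatives put it just under, at -0.935 to -0.999. A locus assembled from the reads (MSTRG.14450), named SERPINB8 after a sperm whale protein, had 1.86, 1.96 and 1.70 in BEFs, 0.58, 1.08 and 1.06 in CiADCs-3d and 0.72, 0.54 and 0.45 in CiADCs-6d. All its CiADCs samples were below BEFs. It fell by 1.02 on day 3 (SE 0.25, adjusted p = 0.0041), a call lost in 8 of 20 alternatives, and by 1.73 on day 6 (SE 0.27, adjusted p = 0.000102). Without the CiADCs samples numbered 1 it was also lower on day 6 than on day 3, by -1.20 (adjusted p = 0.000566).

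SERPINB5 (ncbi_534323), maspin, is a non-inhibitory member best known from epithelium. Its FPKM was 2.59, 3.29 and 3.09 in BEFs, 0.80, 0.56 and 0.66 in CiADCs-3d and 0.42, 0.59 and 0.66 in CiADCs-6d. It fell by 2.16 on day 3 (SE 0.22, adjusted p = 4.59e-06) and 2.45 on day 6 (SE 0.23, adjusted p = 1.47e-06), without overlap with BEFs. The 8 keratinocyte markers summed to an FPKM of 25.5 to 34.3 in BEFs, 36.9 to 47.6 in CiADCs-3d and 39.0 to 43.8 in CiADCs-6d. KRT5 and CDH1 were the only ones to reach an FPKM of 1, and they went different ways. CDH1 had means of 10.5, 32.2 and 21.8 in that order and was called higher on day 3. KRT5 had means of 17.0, 8.34 and 17.9 and was called lower on day 3. Among the scarcer ones, DSP had a lower mean in CiADCs (0.83, 0.60 and 0.56) and DSG3 a higher one (0.20, 0.24 and 0.41).

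SERPINB9 (ncbi_524513), the granzyme B inhibitor, had an FPKM of 1.70 to 1.93 in BEFs, 1.62 to 2.53 in CiADCs-3d and 2.11 to 3.10 in CiADCs-6d. The day 3 range spanned that of BEFs, and the log2 differences were 0.24 (adjusted p = 0.349) and, on day 6, 0.59 (adjusted p = 0.0288, under 2-fold). In RefSeq it is the immediate neighbour of SERPINB1. SERPINB2 (ncbi_281376), PAI-2, had 19, 25 and 24 counts in BEFs, 42, 10 and 22 in CiADCs-3d and 50, 42 and 22 in CiADCs-6d. The day 3 samples overlapped BEFs, while by FPKM all 3 day 6 samples were above BEFs (0.56 to 1.12 against 0.42 to 0.50). It was not called, at 0.26 (adjusted p = 0.656) and 0.86 (adjusted p = 0.118). CiADCs-3d replicate 1 set the sign on day 3, which was -0.45 (adjusted p = 0.393) without that sample.

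For the proteases that clade A and B members face, a list of cathepsins, granzymes and relatives had 10 tested genes, all cathepsins or FURIN. The granzymes were too low to be tested, and no row carried ELANE or CTSG, the symbols of neutrophil elastase and cathepsin G. The targets named above for SERPINB1, SERPINB6 and SERPINB9 were thus not among the tested genes. Of the 10, 3 were called higher and 1 lower on each day, with medians of 0.04 and 0.11. With 10 genes, these counts lay near the 18.2% to 21.9% higher and 9.94% to 13.4% lower over all tested genes. CTSC, cathepsin C, which activates granule serine proteases, had an FPKM of 18.1, 17.5 and 18.6 in BEFs, 421 to 481 in CiADCs-3d and 461 to 529.5 in CiADCs-6d. It rose by 4.65 (adjusted p = 5.59e-11) and 4.80 (adjusted p = 4.39e-11). CTSK, the collagen-cutting cathepsin K, fell by 1.39 and 1.52.

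The liver serpins of the clotting system stayed near the limit of detection. SERPINC1 (ncbi_540261), antithrombin, had 15, 32 and 28 counts in BEFs, 23, 24 and 40 in CiADCs-3d and 30, 18 and 14 in CiADCs-6d. The groups overlapped, with log2 differences of 0.32 (adjusted p = 0.466) and -0.14 (adjusted p = 0.753). SERPIND1, heparin cofactor II, had 2 counts in each BEFs sample, 1, 2 and 8 in CiADCs-3d and 6, 13 and 3 in CiADCs-6d, too few to be tested. Its count ratio was 4.02 on day 6 against BEFs, with an exact 95% interval of 1.58 to 12.1 that covers counting error only.

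Among the other members with counts but no test, SERPINA11 (ncbi_538280) had 5, 9 and 8 counts in BEFs, 1, 0 and 0 in CiADCs-3d and none in CiADCs-6d. It was thus seen almost only in BEFs. The day 3 ratio was 0.0491 (exact 95% interval 0.00119 to 0.304), and on day 6 it was at least 2.2-fold lower with each CiADCs-6d library set to that floor. SERPINB10 had 14, 13 and 9 counts in BEFs, 1, 5 and 5 in CiADCs-3d and 4, 6 and 0 in CiADCs-6d, with ratios of 0.330 (0.152 to 0.663) and 0.304 (0.135 to 0.626). A second SERPINB2 row (ncbi_505184) had 1 count in BEFs against 12 in CiADCs-3d and 6 in CiADCs-6d. RefSeq gives the symbol SERPINB2 to this row and names the tested one (ncbi_281376) LOC281376.

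A SERPINB6 copy (ncbi_404051) had 11, 9 and 6 counts in BEFs, 2, 9 and 12 in CiADCs-3d and 8, 2 and 0 in CiADCs-6d, with overlapping groups. SERPINA1, alpha-1-antitrypsin, had 1 count in all 9 samples together. SERPINA10, SERPINA3-5, SERPINB12, the other SERPINB6 copies and SERPINE3 had at most 3 counts in any sample. The 25 silent members included SERPINA5, SERPINA6, SERPINA7, SERPINB3, SERPINB4, SERPINB7, SERPINB13 and SERPINI2. A row spelled Serpina1 (ncbi_286871, SERPINA14 in RefSeq), which the capital letters of the rule leave out, had 2 counts in BEFs replicate 1 and none elsewhere. Of serpins under other symbols, AGT, angiotensinogen, had 2 and 1 counts in CiADCs-6d replicates 1 and 2 and none elsewhere.

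Protease inhibitors outside the serpin family gave a comparison for these changes. Of 23 tested genes, 13 were called higher and 3 lower on day 3, and 11 higher and 5 lower on day 6, with median log2 fold changes of 1.58 and 1.10. The background was again 18.2% higher and 9.94% lower on day 3 and 21.9% and 13.4% on day 6. A2M, ITIH4, SLPI, SPINK5 and SPINT1 had under 10 counts in every BEFs sample and passed the filter only through the CiADCs samples. Without these 5, the counts were 8 and 3 of 18 on day 3 and 7 and 5 on day 6, with medians of 0.79 and 0.56. TIMP1, an inhibitor of matrix metalloproteinases and the gene of the list with the highest mean FPKM over the 9 samples, had an FPKM of 1974, 1921 and 1933 in BEFs, 905, 980 and 913 in CiADCs-3d and 2665, 2354 and 2735 in CiADCs-6d. It fell on day 3, by 1.08 (adjusted p = 2.02e-06), and rose from day 3 to day 6, by 1.45 (adjusted p = 1.97e-05). CST3, cystatin C, had a mean FPKM of 361 in BEFs against 2376 in CiADCs-3d and 2678 in CiADCs-6d. It was above TIMP1 in every CiADCs-3d sample and in CiADCs-6d replicate 1, and below it in CiADCs-6d replicates 2 and 3. A2M, the broad trap alpha-2-macroglobulin, had 2 counts in BEFs against 367 in CiADCs-3d and 610 in CiADCs-6d, a count ratio of 334 on day 6 (exact 95% interval 92.1 to 2766, counting error only). Its day 6 counts leaned on replicate 1, with FPKM of 3.82, 1.20 and 1.05 on day 6 against 0.80, 1.52 and 1.27 on day 3. Without the samples numbered 1, the day 6 values lay below those of day 3. SPOCK1, at an FPKM under 1 throughout, had the lowest log2 fold change of the list on day 6, -3.06 (adjusted p = 0.00128).

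**Figure D5:**
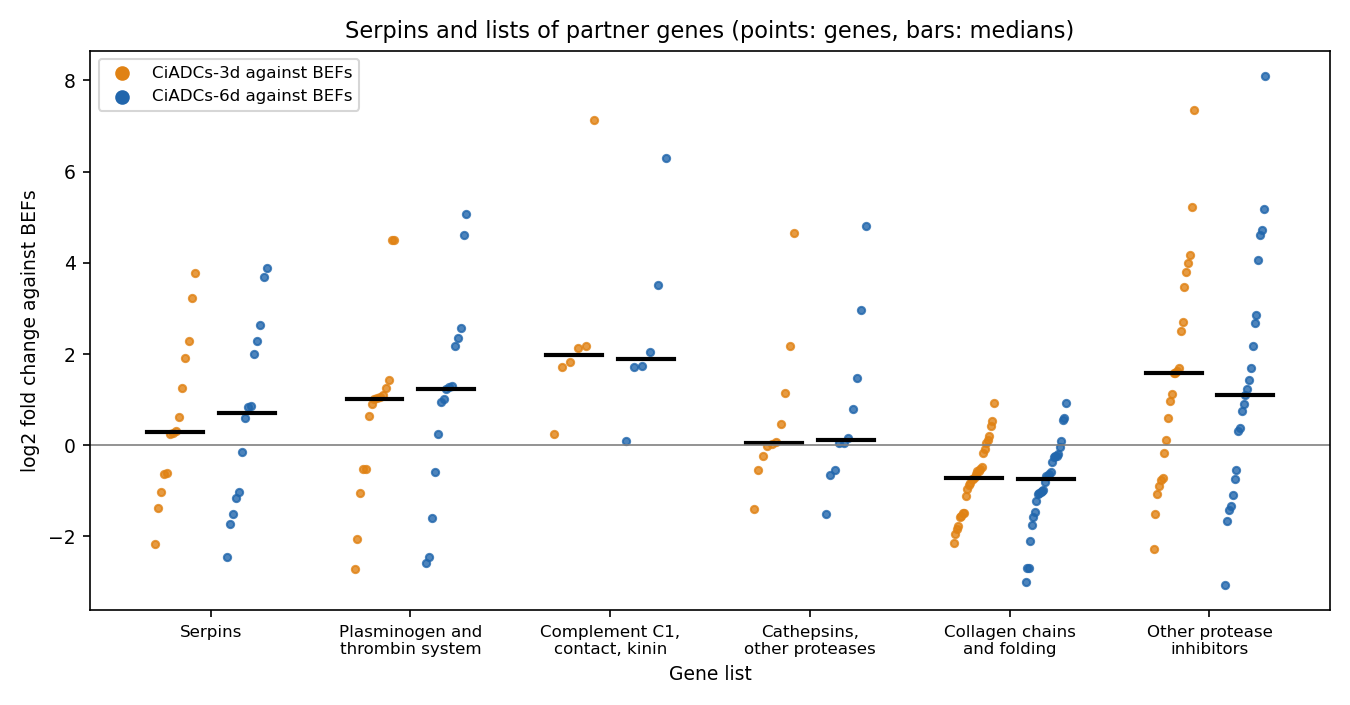
Log2 fold change against BEFs on day 3 (orange) and day 6 (blue) for the tested serpins and the tested genes of the 5 partner lists, with points for genes and black bars for medians. The collagen list had medians of -0.73 and -0.74 and the complement C1, contact and kinin list 1.97 and 1.90. The highest points of the complement and other-inhibitor lists, KNG1 and A2M, had 0 and 2 counts in BEFs, so their heights depend on the prior count of the fit.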

How the data were processed

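Expected counts and FPKM per gene and sample were used as the authors deposited them. The expected counts (estimated reads per gene) were not normalized, and the FPKM values had been scaled by the authors to transcript length and library size. The submitters' processing notes list RSEM, StringTie 1.3.1, HISAT2 2.2.4 and fastp 0.18.0 and give no roles, whereas TopHat and HTSeq appear in the paper's methods. The genome build is not given in the sources used here, and the labels and the paper describe different RNA selection (ribosomal RNA removal and oligo(dT) capture).

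The counts were rounded. In edgeR 4.0.16, filterByExpr (minimum count 10, minimum total 15) left 14020 of 21512 genes, TMM scaled the libraries, and one quasi-likelihood fit with a term per group and no block covered the 9 samples and 3 comparisons. A call needed an adjusted p (Benjamini-Hochberg over all tested genes) under 0.05 and a log2 fold change of 1 or more in size. The standard error is the log2 fold change over the square root of the F statistic. Ratios of few counts have exact 95% intervals, and the floor is 3 counts per library. Intervals cover counting error only. Single values over samples were compared by exact permutation. R 4.3.3, limma 3.58.1, DESeq2 1.42.0 and Python 3.11.15 with matplotlib 3.10.9 were used, and the fit was tested on simulated data.

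The members and the gene lists were chosen with earlier results of these data known. 1 further row that the rule finds is not reported here, and sums and shares over the serpins leave it out. From each partner list the text names the tested gene with the highest mean FPKM over the 9 samples, the highest and the lowest log2 fold change on day 6 against BEFs, and the textbook partners PLAU, PLAT, C1R, C1S and COL1A1. P4HA2, PPIB and MASP1 were added to a plot, and LRP1, CST3 and the genes under 10 counts in BEFs to the text, after their values were seen. Of 50 members with an NCBI Gene ID, 49 matched RefSeq, 32 under the same symbol. Protein and promoter features were not analysed here.

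The tests were repeated with DESeq2, with total-count or upper-quartile scaling, without a filter or with a minimum of 10 counts in each library, and with limma on log2(FPKM + 1) or log2(FPKM + 0.1), keeping genes at an FPKM of 1 or more in 3 samples, or on log2(FPKM + 1) with all genes. They were also repeated with the adjusted p alone, with a replicate block, on the pair of groups compared alone, and with every sample removed once. Removing both CiADCs samples numbered 1 was added after the data were seen.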

Additional observations from a re-analysis of the deposited data

How the results depend on the processing

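The counts of called serpins were 5 higher and 3 lower on day 3, 5 higher and 5 lower on day 6, and 0 higher and 0 lower on day 6 against day 3. With at least 10 counts in every sample and in each of the 3 limma fits, 3 were higher on day 3 and 3 on day 6, because SERPINF2 and SERPINI1 were not tested there or, without a filter, had a difference under 2-fold after the pseudocount was added. Over all tested genes, 1692 of 12118 were higher on day 3 and 2071 on day 6 with that minimum. With limma these were 1433 and 1824 of 12165 on log2(FPKM + 1), and 1872 and 2257 on log2(FPKM + 0.1). Without the filter they were 1440 and 1843 of 17757. With limma on log2(FPKM + 1), filtered or not, 3 were lower on day 6, as were 1223 of 12165 and 1224 of 17757 tested genes. By the adjusted p alone, 5 were lower on day 3, as were 29.1% of all tested genes. On day 6 against day 3, 2 were lower by the adjusted p alone, as were 13.6% of all tested genes. Without the CiADCs samples numbered 1, 2 were lower, as were 1080 of all 14168 tested genes. Leaving out 1 sample at a time gave 4 to 5 higher and 2 to 4 lower on day 3, 5 to 5 higher and 4 to 6 lower on day 6, and 0 to 1 higher and 0 to 0 lower between the days. The 1 came without CiADCs-3d replicate 1, where SERPINB2 (ncbi_281376), CiADCs-6d against CiADCs-3d, was 1.29. Over the 14224 to 14285 genes tested in these fits, 2498 to 2675 were higher and 1368 to 1429 lower on day 3. On day 6 these were 3029 to 3182 and 1854 to 2160, and between the days 408 to 715 and 293 to 832.

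A direction turned for 2 genes that were not called. SERPINB2 (ncbi_281376), CiADCs-3d against BEFs, was 0.26 and became -0.45 without CiADCs-3d replicate 1, in a range of -0.45 to 0.64 with 1 sample left out, and -0.44 without the CiADCs samples numbered 1. SERPINC1 (ncbi_540261), CiADCs-6d against BEFs, was -0.14 and became 0.017 without BEFs replicate 2, in a range of -0.49 to 0.017. The cause was not tested. Without a filter, SERPINA11 was also called lower on both days and the second SERPINB2 row higher on day 3, and DESeq2 also called SERPINA11 lower. SERPINE2, SERPING1, SERPINB1, SERPINB5 and SERPINH1 kept their call on both days under all alternatives.

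The sample numbers did not pair the samples. Deviations of same-numbered samples correlated at -0.45 to 0.26. With a replicate block the counts were 5, 3, 5, 5, 0 and 0, as without it. Over all 14020 tested genes they were 2507, 1382, 3041, 1874, 513 and 394 with the block. Depth limits the 12 members with counts that were too few to be tested.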
